A study of Rattus norvegicus with 6 samples.

Results

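The genes described here are carriers that move urate and other organic anions across cell membranes. Their probes were found by matching the accession of each non-control array probe to the listed rat symbols. Of the 10 listed genes, 9 had a matched probe, with 19 probes in all among the 61657 non-control probes of the array. They were Slc17a1, Slc17a3, Slc2a9, Abcg2, Abcc3, Abcc4, Slc22a7, Slc22a8 and Slc22a12. No probe was matched to Slc17a4, which was not analysed here.

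Liver RNA came from 3 male Sprague-Dawley rats dosed with o-anthranilic acid (1000 mg/kg/day) and from 3 given corn oil, the vehicle. Each rat had its own single-colour array. All rats were bought at 5 weeks of age and fed a basal diet. The labels give the length of dosing as 9 weeks in the treatment protocol and as 28 days in the series design, and the duration behind the values is therefore not settled. Anthranilic acid (2-aminobenzoic acid) is a breakdown product of tryptophan and is itself an organic acid.

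Urate is the end of purine breakdown in humans, whereas in rats the liver enzyme uricase oxidises it further to allantoin. Carriers of the SLC22, SLC17 and SLC2 families and pumps of the ABC superfamily take up or release urate, drug conjugates, bile acids and small aromatic acids at the membranes of liver, kidney and gut. Many of them accept overlapping substrates, and export pumps lie on either the blood-facing or the bile-facing membrane of the hepatocyte.

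On each array between 53.3% and 58.0% of probes were well above background, no spot was saturated, and the 75th percentile of the processed signal lay between 489 and 523. Values below are normalised signals, the processed signal divided by that percentile of the same array. A difference is the mean log2 value of anthranilic acid livers less that of corn oil livers, and its standard error (SE) or 95% interval comes from a limma fit over all 33428 tested probes. Levels of different probes are not set against each other, because probes differ in their response to RNA amount. Testing required that all 3 arrays of either group read the probe well above background, which held for 14 of the 19 probes and for all 9 genes. The gene family was chosen by its transport function and by the differences of Slc17a3 and Abcc3 in this same comparison, which were known beforehand. Differences of the members are therefore a description of these 6 rats, and no test of them is offered as support. Anthranilic acid replicate 3 lay on slide 2, scanned apart from the other 5 arrays, which shared slide 1. Treated arrays used row 2 of slide 1 and corn oil arrays its row 1, where effects of row and dosing cannot be told apart.

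Livers of rats given anthranilic acid had higher signals for the export pump Abcg2, for the SLC17 carriers Slc17a1 and Slc17a3 and for the export pump Abcc3. The fold differences were 3.23, 1.58, 1.92 and 1.66 at the brightest tested probe of each gene. In each case the lowest treated rat lay above the highest corn oil rat, as was so for 10.7% of all genes. Slc22a12 had lower signals, 0.650 times those of corn oil livers. Slc22a8 and Slc22a7 lay close to the corn oil level. With the fit over all probes, limma called 0 of the 14 member probes at adjusted p under 0.05, where the background was 0.0329% of probes (11 of 33428). The adjusted p ran from 0.0650 at Slc17a3 to 0.999 at Slc22a8. At unadjusted p under 0.05 there were 7 member probes, 6 higher against a background of 5.72% and 1 lower against 6.52%. In bulk liver, fewer cells of a type and less RNA per cell cannot be told apart.

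**Figure D1:**
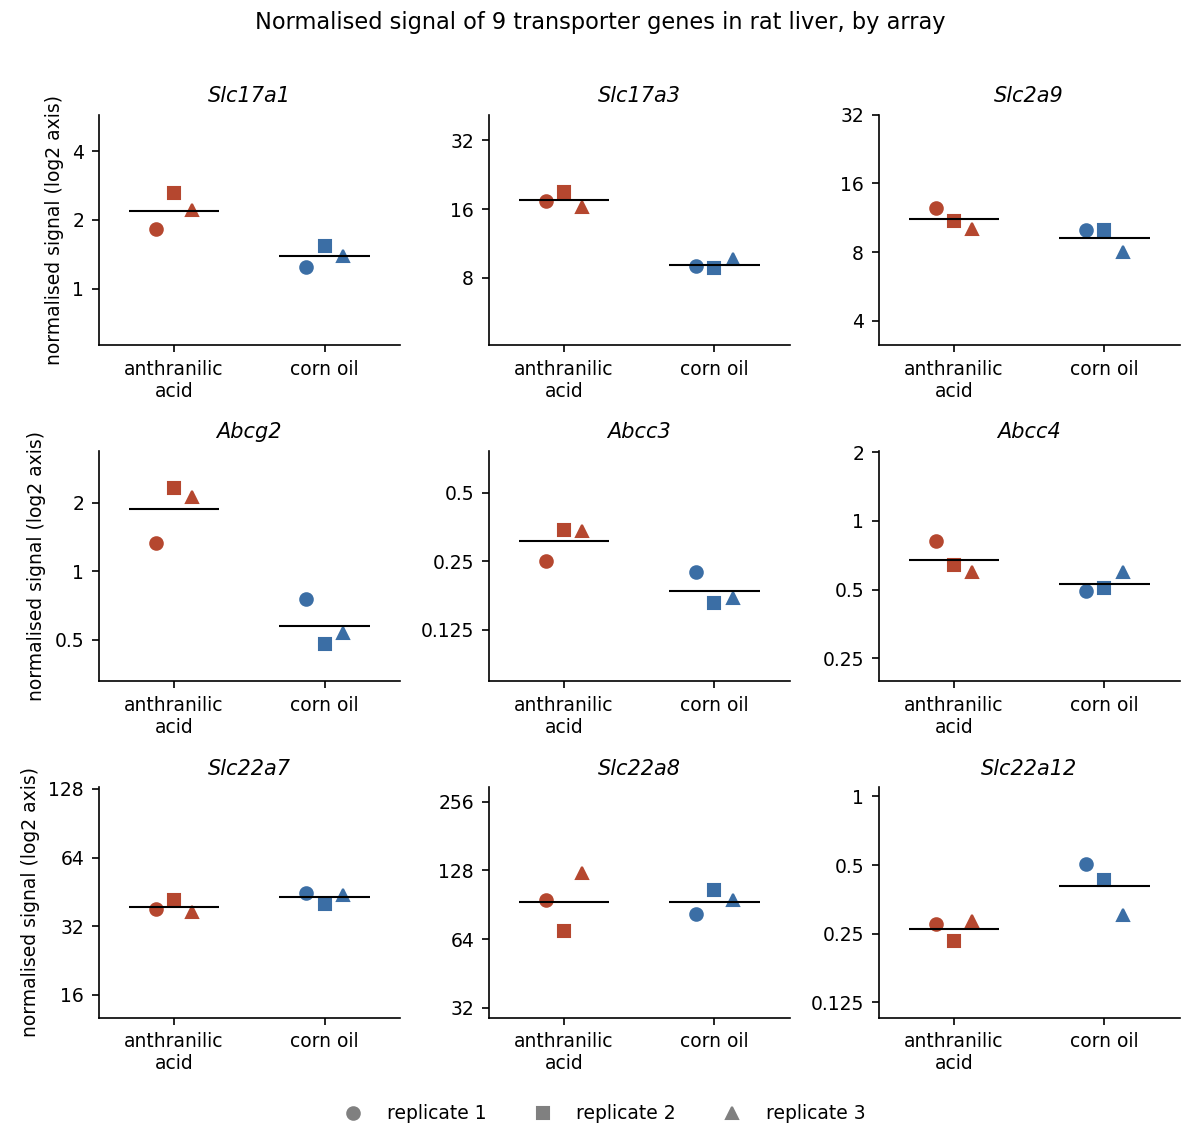
Normalised signal (log2 axis, each panel spanning the same number of doublings) of the brightest tested probe of each of the 9 genes, with 3 anthranilic acid arrays on the left and 3 corn oil arrays on the right. Points are single rats and bars are means of the log2 values. The groups do not overlap for Slc17a1, Slc17a3, Slc2a9, Abcg2, Abcc3 and Slc22a12. Over all genes, 10.7% did not overlap with treated rats higher and 9.12% with treated rats lower.

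Abcg2, the breast cancer resistance protein, sits in the canalicular membrane of hepatocytes and pumps urate and sulfated conjugates towards bile. Its probe A_64_P121786 had normalised signals of 1.33, 2.31 and 2.12 in anthranilic acid livers, against 0.754, 0.479 and 0.534 in corn oil livers. All 3 treated rats lay above all 3 corn oil rats, and replicate 1 was the nearest to the other group on both sides. The difference was 1.69 (SE 0.26, 95% interval 1.06 to 2.33). The probe A_44_P402464 of the same gene gave 1.38, 2.18 and 2.16 in anthranilic acid livers, against 0.705, 0.461 and 0.461 in corn oil livers, again with no overlap. Its difference was 1.81 (SE 0.25), or 3.52-fold. The shifts of these probes differed from each other by 0.12 (SE 0.07), so both reported nearly the same change. By size of difference, the brighter probe placed Abcg2 at rank 29 of the 10251 genes with a tested probe, and 138 genes (1.35%) differed by at least 1 on the log2 scale. Within slide 1 the Abcg2 difference was 1.60 (SE 0.31) at A_64_P121786 and 1.71 (SE 0.29) at A_44_P402464.

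Slc17a3, known as NPT4, and Slc17a1, known as NPT1, are multispanning carriers first described as sodium-phosphate transporters that also move urate and other organic anions. Slc17a3 had 17.3, 19.1 and 16.3 in anthranilic acid livers, against 8.997, 8.80 and 9.63 in corn oil livers. The rats of each group lay close together and the groups were well separated. The difference was 0.94 (SE 0.10, 95% interval 0.71 to 1.17), and it was 0.99 (SE 0.10) within slide 1. Slc17a1 had 1.82, 2.62 and 2.20 in anthranilic acid livers, against 1.25, 1.54 and 1.39 in corn oil livers. Here the lowest treated rat, replicate 1, stood nearer to the corn oil range. The difference was 0.66 (SE 0.16, 95% interval 0.28 to 1.04), and 0.65 (SE 0.19) within slide 1. A single array probe was matched to each of these genes, so neither value has a check from another probe.

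In the RefSeq gene order of chromosome 17, Slc17a4, Slc17a1, Slc17a3 and Slc17a2 follow each other with no other protein-coding gene between them. Slc17a2, the neighbour of Slc17a3, had 3.84, 4.26 and 4.05 in anthranilic acid livers, against 5.16, 3.79 and 3.86 in corn oil livers. Its groups overlapped and its difference was -0.06 (SE 0.14, limma adjusted p = 0.880). The higher signals were thus measured at Slc17a1 and Slc17a3 of this gene row and not at Slc17a2. The difference between these shifts was not tested.

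The promoter windows of the 3 genes are shown because Slc17a1, Slc17a3 and Abcg2 had higher signals together. Abcc3 was also higher, but no promoter window of Abcc3 was available. They are RefSeq sequences of the GRCr8 build, 250 bases before to 50 after a transcript start, in the direction of transcription. They lie at chr17:41681125-41681424 (minus strand, Slc17a1), chr17:41723060-41723359 (minus strand, Slc17a3) and chr4:89075224-89075523 (plus strand, Abcg2). Capitals mark matches on either strand to GGGCGG, the GC box of Sp1-type factors, or to GCGTG, the core of the element bound by the aryl hydrocarbon receptor.
Slc17a1: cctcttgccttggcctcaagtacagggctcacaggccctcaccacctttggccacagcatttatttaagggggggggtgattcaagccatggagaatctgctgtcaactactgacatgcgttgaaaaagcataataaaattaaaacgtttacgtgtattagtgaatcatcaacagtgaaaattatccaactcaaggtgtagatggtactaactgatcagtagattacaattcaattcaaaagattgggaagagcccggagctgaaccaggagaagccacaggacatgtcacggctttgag
Slc17a3: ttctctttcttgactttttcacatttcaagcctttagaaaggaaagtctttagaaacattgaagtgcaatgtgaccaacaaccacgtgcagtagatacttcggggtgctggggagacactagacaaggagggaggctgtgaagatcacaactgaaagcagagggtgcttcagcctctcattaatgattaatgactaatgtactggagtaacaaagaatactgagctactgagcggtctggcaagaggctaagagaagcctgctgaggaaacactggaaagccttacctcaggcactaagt
Abcg2: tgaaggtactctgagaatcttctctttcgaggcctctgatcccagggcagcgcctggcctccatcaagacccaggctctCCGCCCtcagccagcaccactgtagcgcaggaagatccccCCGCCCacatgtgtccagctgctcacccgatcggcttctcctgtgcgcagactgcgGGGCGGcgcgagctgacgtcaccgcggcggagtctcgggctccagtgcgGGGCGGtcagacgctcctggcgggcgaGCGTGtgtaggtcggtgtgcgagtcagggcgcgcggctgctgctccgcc

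The Abcg2 window had a GC content of 68.0% and held 4 matches to GGGCGG and 1 match to GCGTG, none of them overlapping. The Slc17a1 and Slc17a3 windows had GC contents of 44.3% and 44.7% and held neither motif. Over all 27457 windows of that length in the table, 34.9% held GGGCGG and 31.1% held GCGTG, and the median GC content was 52.3%. The antioxidant response element core TGACNNNGC, present in 12.2% of windows, and GTTAAT, part of the HNF1 site, present in 7.37%, matched none of the 3 windows. Only exact letters were counted, so the absence of a match does not show the absence of a similar site. The Slc17a3 window holds ATTAAT, which differs from GTTAAT only by its first base. Among the 6 other members with a window in the table, Abcc4 held 1 match to GGGCGG and 2 to GCGTG, Slc22a7 held 1 match to GGGCGG and Slc22a8 held 1 match to GTTAAT. A match describes letters in a window and not a bound site.

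Slc2a9, known as GLUT9, is a membrane carrier of urate related to the glucose transporters, and in mice it brings urate into hepatocytes. Its brighter probe A_44_P791941 had 12.5, 11.0 and 10.1 in anthranilic acid livers, against 9.97, 9.96 and 7.999 in corn oil livers. The groups did not overlap, but the lowest treated rat stood at 10.07 and the highest corn oil rat at 9.97. The difference was 0.27 (SE 0.13), with a 95% interval of -0.06 to 0.59. The dimmer probe A_44_P302145 had 0.370, 0.367 and 0.349 in anthranilic acid livers, against 0.392, 0.381 and 0.299 in corn oil livers, with overlapping groups and a difference of 0.03 (SE 0.13). The shifts of both Slc2a9 probes differed by -0.24 (SE 0.08, dimmer minus brighter), the largest gap among the 6 pairs of member probes. By limma over 9230 pairs of probes of 1 gene this pair had adjusted p = 0.584, and 0 pairs passed, against 689 at unadjusted p under 0.05.

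Abcc3 and Abcc4 are pumps of the basolateral membrane, which release glucuronide conjugates and, for Abcc4, bile acids, cyclic nucleotides and urate towards blood. Abcc3 probe A_42_P572725 had 0.251, 0.343 and 0.340 in anthranilic acid livers, against 0.225, 0.165 and 0.172 in corn oil livers. The treated rats were all higher, with replicate 1 of each group close to the other group. The difference was 0.73 (SE 0.18), and 0.66 (SE 0.21) within slide 1. Both dimmer Abcc3 probes were well above background on 2 of 3 anthranilic acid arrays and on 0 of 3 corn oil arrays. The groups overlapped at both. A_44_P221974 had 0.0398, 0.0694 and 0.0907 in anthranilic acid livers, against 0.0425, 0.0231 and 0.0499 in corn oil livers. A_64_P033761 had 0.0304, 0.0604 and 0.0776 in anthranilic acid livers, against 0.0373, 0.0215 and 0.0277 in corn oil livers. In each case anthranilic acid replicate 1 lay within the corn oil range. Set against a floor, the mean treated signal was 1.34-fold higher at A_44_P221974 and 1.19-fold higher at A_64_P033761. The floor on each corn oil array is the dimmest signal that still counted as well above background. Where the signal of the probe itself was higher, that signal was used instead. The treated mean took in the array not well above background, so these values are not strict bounds. Without anthranilic acid replicate 3 the value at A_64_P033761 was under 1.

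The 3 tested probes of Abcc4 differed by 0.35 (SE 0.15), 0.33 (SE 0.12) and 0.26 (SE 0.14) from the brightest to the dimmest, a spread smaller than any of their standard errors. At the brightest, A_64_P057340, the signals were 0.814, 0.639 and 0.595 in anthranilic acid livers, against 0.492, 0.510 and 0.596 in corn oil livers. The groups overlapped there by a single rat on each side. The middle probe A_64_P093599 did not overlap, with 0.303, 0.320 and 0.289 in anthranilic acid livers, against 0.285, 0.219 and 0.227 in corn oil livers. The third, A_44_P257526, had 0.129, 0.0977 and 0.118 in anthranilic acid livers, against 0.107, 0.0869 and 0.0930 in corn oil livers, and its groups overlapped. A further dim probe, A_44_P344679, was above background on 2 anthranilic acid arrays and 1 corn oil array and was not tested.

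**Figure D2:**
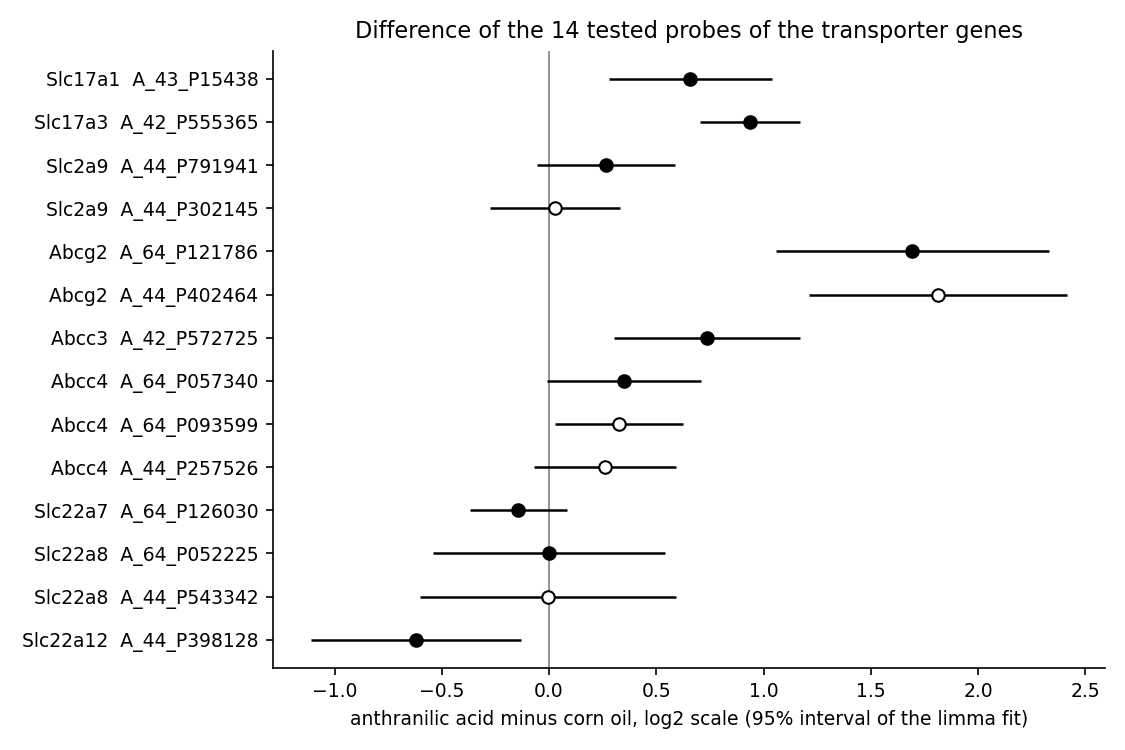
Difference (anthranilic acid minus corn oil, log2 scale) of each of the 14 tested member probes, with 95% intervals from limma (3 rats per group). Filled points are the brightest tested probe of a gene and open points its other probes. Both Abcg2 probes lie between 1.69 and 1.81, and both Slc22a8 probes lie at 0.00.

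The SLC22 members are organic anion carriers. Slc22a7, or OAT2, and Slc22a8, or OAT3, take up organic anions from blood, whereas Slc22a12, or URAT1, reabsorbs urate in the kidney. Slc22a7 had 38.1, 41.8 and 36.9 in anthranilic acid livers, against 44.9, 40.0 and 43.9 in corn oil livers. The groups overlapped, and the difference was -0.14 (SE 0.09, 95% interval -0.37 to 0.09).

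Slc22a8 varied more between rats than between groups. Its brighter probe A_64_P052225 had 94.9, 69.0 and 124 in anthranilic acid livers, against 82.4, 105 and 94.7 in corn oil livers. The difference was 0.00 (SE 0.22), with a 95% interval of -0.54 to 0.54 that leaves room for shifts of either sign. The other probe, A_44_P543342, put the 6 rats in the same order, with 4.73, 3.51 and 6.79 in anthranilic acid livers and 4.48, 5.63 and 4.52 in corn oil livers. The standard deviation over the 3 rats was 0.42 in anthranilic acid livers and 0.17 in corn oil livers on the log2 scale at A_64_P052225. The highest rat, anthranilic acid replicate 3, was the array on slide 2, and within slide 1 the difference was -0.21 (SE 0.18) at A_64_P052225 and -0.25 (SE 0.18) at A_44_P543342.

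Slc22a12 was the only member whose groups were apart with the treated rats lower. At A_44_P398128 it had 0.276, 0.232 and 0.284 in anthranilic acid livers, against 0.508, 0.428 and 0.303 in corn oil livers. Corn oil replicate 3 stood just above the treated rats and the other corn oil rats well above them. The difference was -0.62 (SE 0.20, 95% interval -1.11 to -0.13), and it ran from -0.83 without corn oil replicate 3 to -0.46 without corn oil replicate 1. A second probe, A_44_P398132, had 0.0131, 0.0282 and 0.0150 in anthranilic acid livers, not well above background on any array, against 0.0579, 0.418 and 0.0400 in corn oil livers, of which replicates 1 and 2 were above background. Set against the same kind of floor on the treated arrays, its mean corn oil signal was 1.94-fold higher. That mean took in corn oil replicate 3, not well above background, so the value is not a strict bound. Without corn oil replicate 2 the value was under 1. The third probe, A_64_P155059, was not well above background on any array.

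Counting genes by their brightest tested probe, 6 of 9 had a difference above 0, against 52.0% of all 10251 genes, and 3 had one below 0. The groups did not overlap for 5 genes that were higher, against a background of 10.7%, and for 1 gene that was lower, against 9.12%. The median difference was 0.35 over the 9 members and 0.01 over all genes. As the genes were proposed with this comparison in view, nothing is read from these counts.

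Lists of related genes were measured on the same arrays (the plot of related gene lists). List medians shifted when single arrays were left out, and beside each stands its value without the array whose removal took it nearest to 0 or past it. By limma over all probes, 0 of the measured genes of any list passed, as did 0% of all genes, and at unadjusted p under 0.05 the background over all genes was 5.47% higher and 6.15% lower. Of the 3 other SLC17 genes measured, 1 was above 0 and 2 below, with 0 at unadjusted p under 0.05. Their median was -0.06, and it was 0.08 without corn oil replicate 1. Slc17a5, the lysosomal sialic acid exporter, stood at -0.23 (SE 0.19), and Slc17a9, the vesicular nucleotide carrier, at 0.27 (SE 0.25). Of 10 other SLC22 genes, 4 were above 0 and 6 below, with a median of -0.12 (-0.04 without anthranilic acid replicate 2) and 0 at unadjusted p under 0.05. Slc22a13 was at -0.33 (SE 0.14). Slc22a6, the renal OAT1, was at -0.08 (SE 0.19).

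Among 7 other ABCC genes, 5 were above 0, the median was 0.07 (0.03 without anthranilic acid replicate 2) and 1 was at unadjusted p under 0.05. That gene was Abcc8, the sulfonylurea receptor of potassium channels, with 1.70, 1.44 and 1.29 in anthranilic acid livers, against 0.734, 0.737 and 0.998 in corn oil livers (difference 0.85, SE 0.17, limma adjusted p = 0.204). Abcc5, a nucleotide exporter, was at 0.16 (SE 0.11). Abcc2, the canalicular pump for conjugates, was at 0.18 (SE 0.18), with overlapping groups. Of 7 other SLC2 genes, 5 were above 0, with a median of 0.16 (0.07 without anthranilic acid replicate 1) and 1 at unadjusted p under 0.05. Slc2a1, the widely expressed glucose carrier, was at 0.45 (SE 0.11, limma adjusted p = 0.280), and Slc2a2, the main glucose carrier of hepatocytes, at 0.16 (SE 0.13). The 10 SLCO uptake carriers had 4 above 0, a median of -0.05 (0.01 without corn oil replicate 1) and 0 at unadjusted p under 0.05, with Slco5a1 at -0.60 (SE 0.30) and Slco1a5 at -0.28 (SE 0.23).

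Enzymes of purine breakdown and urate metabolism had 12 of 16 measured genes above 0, with a median of 0.08 (0.03 without corn oil replicate 3) and 0 at unadjusted p under 0.05. Xdh, the xanthine dehydrogenase that forms urate, was at -0.02 (SE 0.16). Uox, the uricase that oxidises urate in rat liver, had 38.9, 35.7 and 37.1 in anthranilic acid livers, against 30.1, 29.2 and 36.8 in corn oil livers, with overlapping groups and a difference of 0.22 (SE 0.12). The AMP deaminases Ampd2 and Ampd3 were at 0.31 (SE 0.14) and 0.72 (SE 0.35). Ampd3 was dim, with 0.0876, 0.0865 and 0.0879 in anthranilic acid livers, against 0.0605, 0.0299 and 0.0821 in corn oil livers. Its probe was well above background on 5 of the 6 arrays.

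Of 9 scaffolds and further carriers linked to anion transport, 6 were below 0, with a median of -0.27 (-0.26 without corn oil replicate 1) and 3 at unadjusted p under 0.05. Slc13a3, the sodium-dependent dicarboxylate carrier, had 19.4, 15.7 and 16.1 in anthranilic acid livers, against 36.8, 37.4 and 22.7 in corn oil livers. All treated rats lay below all corn oil rats, with a difference of -0.89 (SE 0.22, limma adjusted p = 0.258). The export pump Abcb1b was at -0.58 (SE 0.15). Of 13 transcription factors known to act on such transporters, 3 were above 0, with a median of -0.12 (-0.07 without corn oil replicate 3) and 2 at unadjusted p under 0.05. Ahr, the aryl hydrocarbon receptor, was at -0.86 (SE 0.18, limma adjusted p = 0.218) and Nfe2l2, which encodes NRF2, at 0.36 (SE 0.15, limma adjusted p = 0.405).

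**Figure D3:**
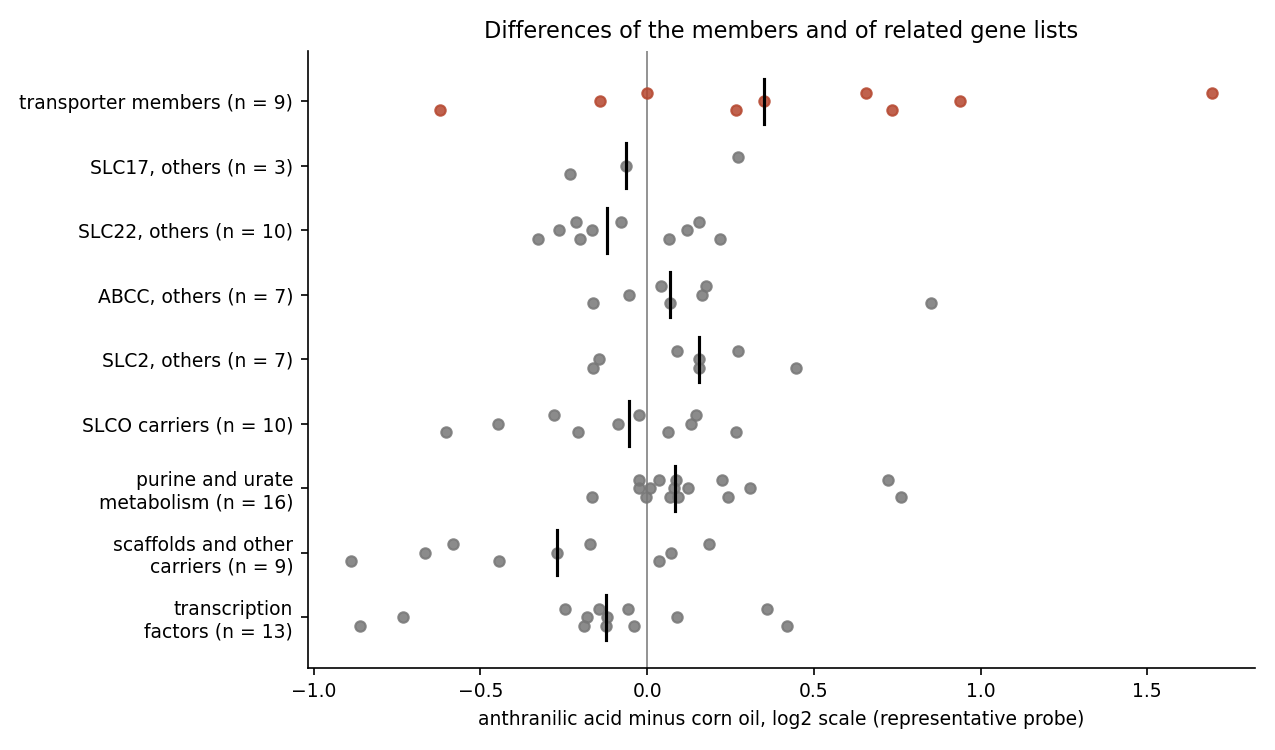
Differences (anthranilic acid minus corn oil, log2 scale) of the brightest tested probe of each measured gene, for the 9 members at the top and for 8 lists of related genes below. Points are genes, vertical position within a row has no meaning, and bars are list medians. The members spread from -0.62 to 1.69, and the list medians from -0.27 to 0.16.

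The genes whose pattern over the 6 arrays was most like that of Slc17a3 were Rbks, the ribokinase (Pearson r = 0.996), Abce1, a factor of ribosome recycling (0.993), Pwp1 (0.992), Coq8a, of coenzyme Q synthesis (0.992), and Gbe1, the glycogen branching enzyme (0.992). These 5 were taken from 9831 genes above background on all arrays, of which 73 (0.743%) had r of at least 0.95. Their differences ran from 0.13 at Rbks to 0.50 at Coq8a. Against Slc17a3, r was 0.934 for Abcg2, 0.901 for Slc17a1, 0.866 for Abcc3 and -0.855 for Slc22a12. All these values rest on the same 6 arrays and mostly on the gap between the groups.

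Markers of several cell types moved with the groups, and their part in the transporter values was not tested. All 10 hepatocyte markers were measured, and their summed normalised signal was 5060 to 5247 in anthranilic acid livers and 5489 to 5699 in corn oil livers. Of these genes 8 were below 0 and 2 above, with Apoa1 at -0.57 (SE 0.15). Their median difference was only -0.09, or -0.01 with quantile normalization. Lymphocyte markers (5 of 8 measured) summed to 1.78 to 1.88 in anthranilic acid livers and 0.993 to 1.23 in corn oil livers, with Cd3e not well above background on any array. Cholangiocyte markers (7 of 8 measured) summed to 7.97 to 8.51 in anthranilic acid livers and 9.08 to 9.86 in corn oil livers, mostly from the anion exchanger Slc4a2, with 6.74, 6.42 and 5.99 in anthranilic acid livers, against 7.83, 7.10 and 8.15 in corn oil livers. Of these 7 genes 5 were above 0, and their median difference was 0.31, or 0.07 without corn oil replicate 3. For erythroid markers, 5 of 7 measured, the ranges of 236 to 352 in anthranilic acid livers and 158 to 298 in corn oil livers overlapped. Sums also overlapped for Kupffer cell and macrophage markers, at 97.2 to 131 in anthranilic acid livers and 106 to 129 in corn oil livers. In the same order, sinusoidal endothelium markers summed to 55.3 to 61.8 and 59.1 to 61.0. Stellate cell and fibroblast markers summed to 38.8 to 47.0 and 42.5 to 44.6, again with overlap. Proximal tubule markers of the kidney, where Slc22a12 and Slc22a6 are best known, were measured for 4 of 9 genes and included both. They summed to 1.04 to 1.35 in anthranilic acid livers and 1.48 to 1.65 in corn oil livers. Part of that gap was the difference of Slc22a12 itself. Among the rest, Lrp2 was lower without overlap, at -0.45 (SE 0.11), while the groups overlapped for Slc5a2 and Slc22a6. Slc34a1, Cubn and Kap, markers of that cell type, were not well above background on any array. The list also held Umod, a gene of another tubule segment, which was not above background either.

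**Figure D4:**
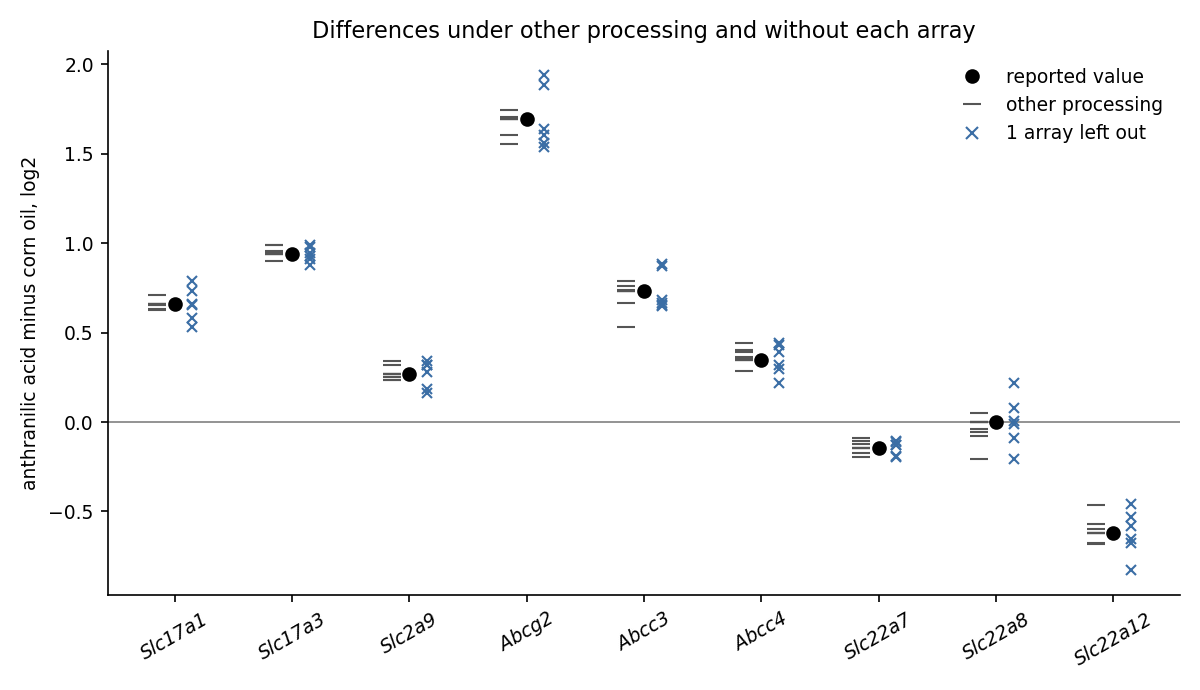
Difference (anthranilic acid minus corn oil, log2 scale) of the brightest tested probe of each member gene: the reported value (circle), values under other processing (dashes) and values with 1 array left out (crosses). Slc22a8 crosses 0, from -0.21 to 0.22, and the other 8 genes keep their sign in every setting drawn.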

How the data were processed

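Spots were extracted by the authors with Agilent Feature Extraction 10.7.1.1, per the file headers, which subtracted background and removed spatial trends. The submitters' processing notes name version 10.7. The deposited intensity values carry no scaling between arrays. The authors' deposited series table holds a ratio of that signal to 1 value per array, within 0.126% of the array's 75th percentile, and served as an alternative.

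The processed signal was log2-transformed and each array's 75th percentile over non-control probes subtracted. Control spots and 14 flagged spots of 369942 were left out. Names came from matching accessions without version to the RefSeq table of GRCr8 (27447 of 61657 probes, 44.5%). The file headers name rn4, so coordinates are given only for the promoter windows, from the GRCr8 table. The comparison used limma 3.58.1 (R 4.3.3, two-sided tests, residual degrees of freedom 4, prior 2.30), with Benjamini-Hochberg adjustment over 33428 probes at 0.05. The number of arrays limits the precision. The fit was tested on simulated data.

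The members, lists and tests were chosen with earlier results of these data known. Every member probe is accounted for. From each list of related genes the 2 with the smallest p are named, with Slc17a2, Slc22a6, Abcc2, Xdh and Uox, and the 5 genes most like Slc17a3. Promoters came from RefSeq (GRCr8) for 9 of 10 members, all but Abcc3. Alternatives covered background correction, scaling, the dim-probe filter, slide and replicate blocks, the variance model, array weights and each array left out.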

Additional observations from a re-analysis of the deposited data

How the results depend on the processing

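Over all probes, limma called 11, with quantile normalization and the authors' deposited series table also giving 11. The count was 50 with normexp background correction (offset 50), 45 with a trended robust variance, 21 with median scaling, 18 with array weights, 6 with slide as a block, and 2 each without the dim-probe filter, with probes above background on all 6 arrays and with the replicate block. With 1 array left out it ran from 4 to 21. Member probes called were 0 in the reported fit, 2 with normexp (Slc17a3 and Abcg2 A_44_P402464, adjusted p = 0.04999), 1 with median scaling and 1 with the trended robust variance (Slc17a3 in both, adjusted p = 0.0163 in the second). By brightest probe, 1 gene, Slc17a3, was called in each of these settings. The causes were not tested. With any 1 array left out, 0 member probes were called. Read from the unfiltered fit, an alternative chosen after seeing the data, the 5 dim member probes gave 0 limma calls, against 1 at unadjusted p under 0.05 (Slc22a12 A_44_P398132).

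The replicate numbers were not used to pair the rats in the reported fit. Deviations of same-numbered rats correlated at 0.07, -0.05 and -0.04, which with 3 rats per group cannot exclude a pairing. The replicate block left 0 member calls, as did the reported fit. Slc22a8 changed sign, from -0.21 without anthranilic acid replicate 3 to 0.22 without anthranilic acid replicate 2, and its dimmer probe from -0.25 to 0.23. The dimmer Slc2a9 probe ran from -0.10 to 0.10. The Slc17a3 difference lay between 0.88 and 0.99 over all settings. The Abcg2 difference lay between 1.54 and 1.94 at A_64_P121786 and between 1.64 and 2.03 at A_44_P402464. The limits are 3 rats per group, a dosing time on which the labels differ, and signals near background for Slc22a12 and the dim Abcc3 probes.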
